A study of Mus musculus with 5 samples.

Results

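The 30 genes described here encode the subunits of the SWI/SNF chromatin remodelling complexes and close partners of them, and were taken by name from 21887 protein-coding genes on chromosomes 1 to 19, X and Y. For each gene, BRG1 peaks were taken whose summit, the position of highest signal within a peak, lay in the gene body or within 1 kb of it. Sites of BRG1 were mapped by immunoprecipitating chromatin and sequencing the bound DNA (ChIP-seq), in primary macrophages grown from mouse bone marrow. The groups were Baf60a knockout (KO) cells given oxidised low-density lipoprotein (oxLDL KO), wild-type (WT) cells given the same lipoprotein (oxLDL WT), KO cells without it, and WT cells without it. Each group was 1 library, with 1 peak list. An input library without antibody was also in the series and was not analysed here. The labels do not state whether Baf60a was deleted in every cell of the mouse or with a tissue-restricted Cre, nor the number, age and sex of the mice or the oxLDL dose and time. Since every group is a single library, differences between lists cannot be set against replicate spread, and none was tested. Intervals on shares are Wilson 95% intervals over genes or peaks and cover counting error only.

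SWI/SNF complexes use ATP to slide or evict nucleosomes and so open promoters and enhancers. Their motor is either of a pair of ATPases, BRG1 (encoded by Smarca4) or BRM (Smarca2), held on a core of scaffold and accessory subunits that includes 1 BAF60 protein. Further subunits mark the type of complex. The canonical complex (cBAF) carries ARID1A or ARID1B with a DPF protein, PBAF carries ARID2, PBRM1, BRD7 and PHF10, and the non-canonical complex (ncBAF) carries BRD9 with BICRA or BICRAL. In macrophages these complexes act with PU.1 and signal-driven factors at inducible enhancers. Binding of BRG1 at the genes listed here is therefore binding of the complex's own motor at genes for its parts.

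The lists held 4668 peaks in oxLDL KO, 9907 in oxLDL WT, 139 in KO and 237 in WT. The authors gave no read totals, and the fragment pileup behind a peak was solved from its p-value together with its fold enrichment. The lowest local background of a list was 3.42 fragments in oxLDL KO, 3.76 in oxLDL WT, 3.84 in KO and 2.70 in WT. It can follow the depth of the library, but it also depends on peak-calling settings that are not stated. The KO list was short at a background as high as those of the oxLDL lists, and the WT list at a lower one. The part of depth in the length of the lists was not tested. As a check of the labelled cell type, 7 of 12 macrophage marker genes had a peak in oxLDL KO and 11 of 12 in oxLDL WT, among them Spi1, Csf1r, Cd68 and Adgre1 in both lists. Of markers of other cells, 0 of 7 neutrophil and 0 of 5 fibroblast genes had one in any list, and 1 of 6 lymphocyte genes (Ms4a1) had one in both oxLDL lists. Among all genes 13.1% had a peak in oxLDL KO and 21.6% in oxLDL WT. With so few markers of other cells, their counts cannot be told from these shares. Without oxLDL, 1 of the 12 macrophage markers (Spi1) had a peak in KO and 0 in WT, so the check does not reach the untreated lists.

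Of the 30 SWI/SNF genes, 12 had a BRG1 peak in oxLDL KO (40.0%, interval 24.6 to 57.7) and 13 in oxLDL WT (43.3%, interval 27.4 to 60.8). Among all protein-coding genes, 13.1% had a peak in oxLDL KO and 21.6% in oxLDL WT by the same rule. A peak in both lists was found at 9 of the 30 genes, against 10.3% of all genes. These were the ATPase gene Smarca2, the BAF60b gene Smarcd2, Arid1b and Dpf2 of cBAF, Arid2, Brd7 and Phf10 of PBAF, and Bicra and Bicral of ncBAF. Smarce1, Bcl7a and Arid1a had a peak in oxLDL KO and not in oxLDL WT, 3 genes against 2.85% of all genes. Smarca4, Ss18, Bcl11a and Pbrm1 had a peak in oxLDL WT and not in oxLDL KO, 4 genes against 11.3% of all genes. The other 14 genes had none in either oxLDL list, as did 75.5% of all genes.

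**Figure D1:**
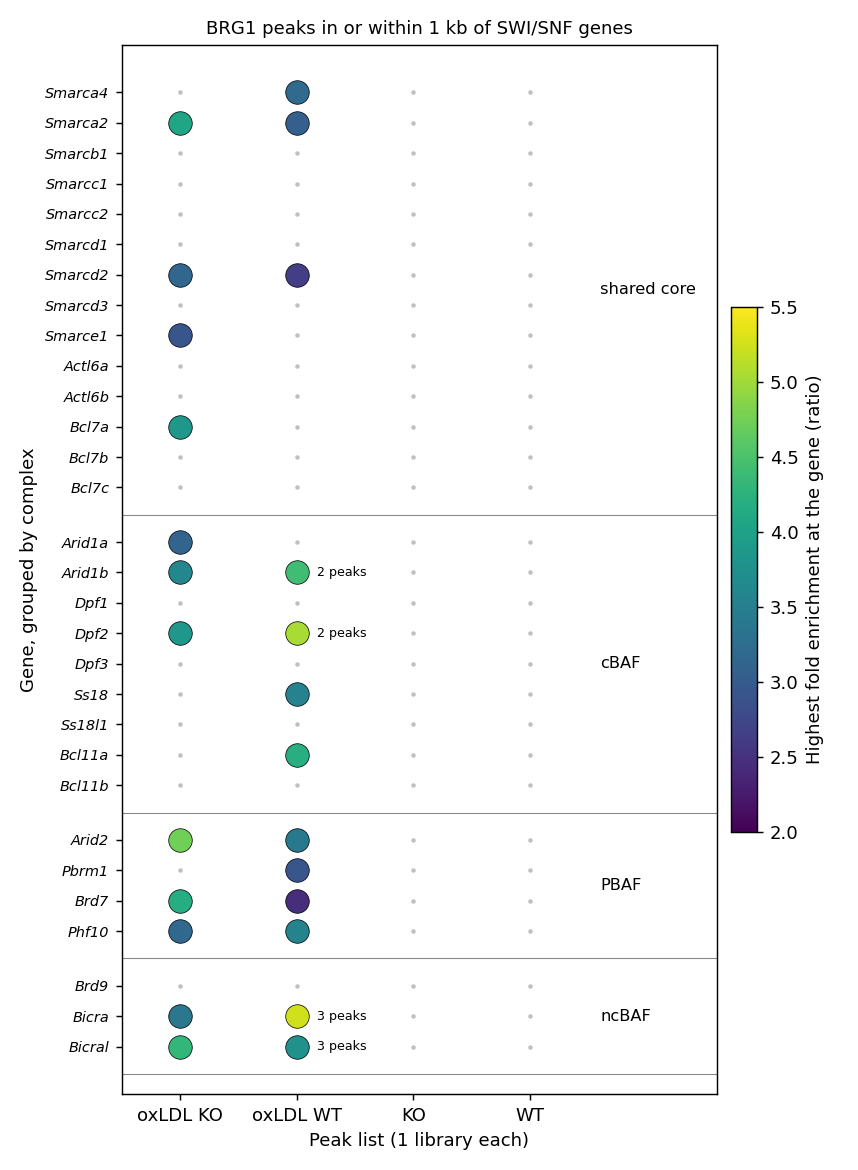
Presence of BRG1 peaks at the 30 genes (rows, grouped by complex) in the 4 peak lists (columns, 1 library each); a large point is a gene with at least 1 peak, its colour the authors' highest fold enrichment there (ratio), and a small grey dot is a gene with none. Points fill 12 genes in oxLDL KO and 13 in oxLDL WT, and 0 in both untreated lists.

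In both untreated lists 0 of the 30 genes had a peak (interval 0 to 11.4%). Over all genes the share was 0.315% in KO and 0.621% in WT, so that a count of 0 lies near the background of lists this short and says nothing particular of the SWI/SNF genes. The nearest untreated summits lay far off. In KO the closest was 178 kb from a gene body (Smarcd2), with a median over the 30 genes of 6.43 Mb, and in WT it was 67.6 kb (Pbrm1), with a median of 3.11 Mb. In each genotype, every peak described below was thus listed with oxLDL and not without it. The 2 oxLDL lists were also the long ones, and the part of list length in this contrast was not tested.

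The gene of the deleted subunit, Smarcd1 (BAF60a; chromosome 15, 99702287 to 99713995, plus strand), had no peak by the rule in any list. It was the gene just outside the limit: an oxLDL WT summit lay 1.23 kb past its downstream end, at 99715221, with a fold enrichment of 3.78 on a pileup of 17 fragments. No other list had a summit within 10 kb of the gene. The gene farthest out but still inside the limit was Bicra, whose oxLDL KO summit lay 560 bp beyond the gene body. These peaks carry no information on the deletion of Smarcd1 itself.

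The shared core was taken as the ATPase, scaffold, BAF60, actin-related and BCL7 genes with Smarcb1 and Smarce1. The name is a label for counting, and not every product in this group is part of every type of complex. Ss18 and Ss18l1, whose products join both cBAF and ncBAF, were counted with cBAF. The core genes had 4 of 14 with a peak in oxLDL KO and 3 of 14 in oxLDL WT, of which Smarca2 and Smarcd2 were in both. These were 28.6% (interval 11.7 to 54.6) and 21.4% (interval 7.57 to 47.6), against 13.1% and 21.6% of all genes. Both intervals include the share of all genes. In oxLDL WT the core therefore stood near the share of all genes. Smarca4 (chromosome 9, 21616106 to 21704230, plus strand), the gene of BRG1 itself, had 1 oxLDL WT peak, with its summit 320 bp downstream of the listed transcription start. That peak was 242 bp wide, the narrowest at any of these genes, with a fold enrichment of 3.19 on a pileup of 17 fragments over a background of 4.64. The nearest oxLDL KO summit was 112 kb from that summit and 24.2 kb from the gene body. Smarca2, which encodes BRM, the other ATPase, carried overlapping peaks in both lists behind its start. The oxLDL KO summit lay 2414 bp downstream of the start with a fold enrichment of 4.07, and the oxLDL WT summit 1767 bp downstream with 3.04. The 2 peaks shared 306 bp and were 334 bp wide in oxLDL KO and 992 bp in oxLDL WT.

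Of the BAF60 paralogs, Smarcd2 (BAF60b, known for its role in granulocyte differentiation) was the one with peaks, 1 in each oxLDL list. They overlapped by 188 bp near the upstream end of the gene (chromosome 11, 106263171 to 106272998, minus strand). The oxLDL KO summit lay 342 bp inside that end with a fold enrichment of 3.16, and the oxLDL WT summit 658 bp inside it with 2.64. The start given for Smarcd2 in the promoter table is another one, 5024 bp downstream of the oxLDL KO summit and 4708 bp downstream of the oxLDL WT summit. Both summits were also within 1 kb of the neighbouring gene Tcam1 and count for it as well. Smarcd3 (BAF60c, the heart and muscle paralog) had no peak, and its nearest summits were 61.7 kb away in oxLDL KO and 15.4 kb in oxLDL WT. Smarcd2 was hence the single paralog of the deleted subunit with a BRG1 peak by the rule, in both genotypes under oxLDL. The oxLDL WT call was near the floor of its list, with a −log10 q of 1.15 on 14 fragments, where the lowest was 1.01. At a −log10 q of at least 2 it dropped out, while the oxLDL KO peak, with 3.05, was kept.

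Smarce1, which encodes the HMG-box subunit BAF57, had an oxLDL KO peak 867 bp inside its high-coordinate end, with a fold enrichment of 2.93 and a −log10 q of 1.39. Bcl7a, an accessory subunit gene altered in lymphomas, had an oxLDL KO peak 496 bp inside its low-coordinate end with 3.85. The nearest oxLDL WT summits were 189 kb and 50.9 kb from these 2 summits. Besides Smarcd1, 8 core genes had no peak in any list. They comprise the scaffold genes Smarcc1 and Smarcc2 (BAF155 and BAF170), Smarcb1, which encodes a tumour suppressor subunit, Smarcd3, the actin-related genes Actl6a and Actl6b (the latter neuronal), Bcl7b and Bcl7c. Bcl7b came closest, with summits 5.63 kb away in oxLDL KO and 5.02 kb in oxLDL WT.

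Among the 9 cBAF genes, 3 had a peak in oxLDL KO and 4 in oxLDL WT, with Dpf2 and Arid1b in both. The intervals on these shares, 12.1 to 64.6% and 18.9 to 73.3%, are wide. They include the 13.1% and 21.6% of all genes. Dpf2 (chromosome 19, 5896516 to 5912871, minus strand) encodes the double PHD finger subunit BAF45d, a reader of acetylated histone tails. Its oxLDL KO summit lay 486 bp and its main oxLDL WT summit 426 bp downstream of the start, 60 bp apart, and the oxLDL KO peak of 525 bp lay wholly within the oxLDL WT peak of 693 bp. The fold enrichment was 3.85 on 16 fragments in oxLDL KO and 5.04 on 23 fragments in oxLDL WT. A second oxLDL WT peak, with 3.13, had its summit 2364 bp downstream of the start. Dpf2 was thus a gene with both genotypes' peaks at the same place, just behind the start.

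Arid1a and Arid1b encode the large DNA-binding subunits that define cBAF, of which a complex holds 1. Arid1a (minus strand) had an oxLDL KO peak with 3.12, its summit 619 bp downstream of the inner of its 2 listed starts, and no oxLDL WT peak. The oxLDL WT summit nearest to that oxLDL KO summit was 51.6 kb away. Another oxLDL WT summit, the nearest to the gene body, lay 5.93 kb outside it. Arid1b, at 353 kb the longest of the 30 genes, had peaks in both lists at different places. In oxLDL KO a single summit lay 180 kb into the gene, with a fold enrichment of 3.62. In oxLDL WT a peak of 1364 bp, the widest at any of the genes, had its summit 967 bp downstream of the start with 4.42 on 21 fragments. A second oxLDL WT peak lay 201088 bp downstream of the start with 2.71 on 12 fragments, the lowest pileup at these genes, 21.5 kb from the oxLDL KO summit. Counting Arid1b as a gene of both lists therefore does not mean a shared site.

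Ss18, whose human counterpart is fused to SSX genes in synovial sarcoma, had an oxLDL WT peak 2.16 kb inside its high-coordinate end with 3.55. Bcl11a encodes a zinc-finger repressor that joins BAF complexes in lymphoid cells. It had an oxLDL WT peak 61423 bp downstream of its start with 4.20 on 19 fragments. No oxLDL KO summit lay within 100 kb of either peak. Dpf1, Dpf3, Ss18l1 and Bcl11b, of which the first 3 are mainly known from neurons and muscle and the last from T cells, had no peak in any list.

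Of the 4 PBAF genes, 3 had a peak in oxLDL KO (interval 30.1 to 95.4%) and all 4 in oxLDL WT (51.0 to 100%). The shares of all genes were 13.1% and 21.6%. Arid2, Pbrm1 and Brd7 are longer than 31.2 kb, and of all genes of such length 22.9% and 34.7% had a peak. Some of the PBAF calls were weak, with a −log10 q of 1.53 for Phf10 in oxLDL KO, and 1.05 for Brd7 and 1.45 for Pbrm1 in oxLDL WT. These calls dropped out at a −log10 q of at least 2. With 4 genes the intervals are wide, and the difference between the types of complex was not tested. Arid2 (chromosome 15, 96287522 to 96405463), which encodes the subunit that defines PBAF, had summits 239 bp outside its low-coordinate end in oxLDL KO and 212 bp outside it in oxLDL WT, 27 bp apart. The oxLDL KO peak had a fold enrichment of 4.74 on 23 fragments, the highest in that list at these genes, and the oxLDL WT peak 3.41 on 18 fragments. Both summits also count for the neighbouring gene Gm38469. The Arid2 pair was the closest of the shared pairs.

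Phf10 (chromosome 17, 14944994 to 14961260, minus strand) encodes BAF45a, the PHD finger subunit of PBAF. Its oxLDL KO summit lay 535 bp and its oxLDL WT summit 502 bp downstream of the start, and the oxLDL KO peak of 246 bp lay wholly within the oxLDL WT peak of 280 bp. The fold enrichment was 3.17 on 13 fragments in oxLDL KO and 3.57 on 16 fragments in oxLDL WT. Brd7 (chromosome 8, 88329894 to 88362252, minus strand), a bromodomain subunit that binds acetylated histones, had its oxLDL KO summit 412 bp and its oxLDL WT summit 168 bp downstream of the start. Its values were 4.17 in oxLDL KO and 2.46 in oxLDL WT, the lowest fold enrichment at any of the genes. The oxLDL KO peak of 298 bp stood wholly within a broad oxLDL WT peak of 1014 bp. Pbrm1, the polybromo subunit, had an oxLDL WT peak 198 bp downstream of its start with 2.94 on 13 fragments, also within 1 kb of Gnl3, and the nearest oxLDL KO summit was 47.8 kb from the gene body.

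Of the 3 ncBAF genes, Bicra and Bicral had peaks in both lists, as did 10.3% of all genes, and Brd9 had one in neither. BICRA and BICRAL (GLTSCR1 and GLTSCR1L) are alternative scaffold subunits of ncBAF, and BRD9 is its bromodomain subunit. Bicra (chromosome 7, 15970671 to 16048146) had a shared site beyond its high-coordinate end, with the oxLDL KO summit 560 bp outside (fold enrichment 3.39) and an oxLDL WT summit 360 bp outside (3.15), 200 bp apart. The strongest peak of all 30 genes was in oxLDL WT, 457 bp inside the same end of Bicra, with a fold enrichment of 5.25 on 24 fragments, and was not overlapped in oxLDL KO. Another oxLDL WT peak stood 29.1 kb inside the gene.

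Bicral (chromosome 17, 46798116 to 46890442) had its shared site within the body. The oxLDL KO summit lay 33.2 kb inside the high-coordinate end with 4.30 on 18 fragments. It stood 695 bp from the oxLDL WT summit of the peak it overlapped, which had 3.36 on 15 fragments, the widest gap among the shared pairs. A further oxLDL WT peak nearby had 3.75, and another lay 369 bp outside the gene and within 1 kb of Tbcc with 3.36. For Brd9 the nearest summits were 478 kb away in oxLDL KO and 134 kb in oxLDL WT.

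**Figure D2:**
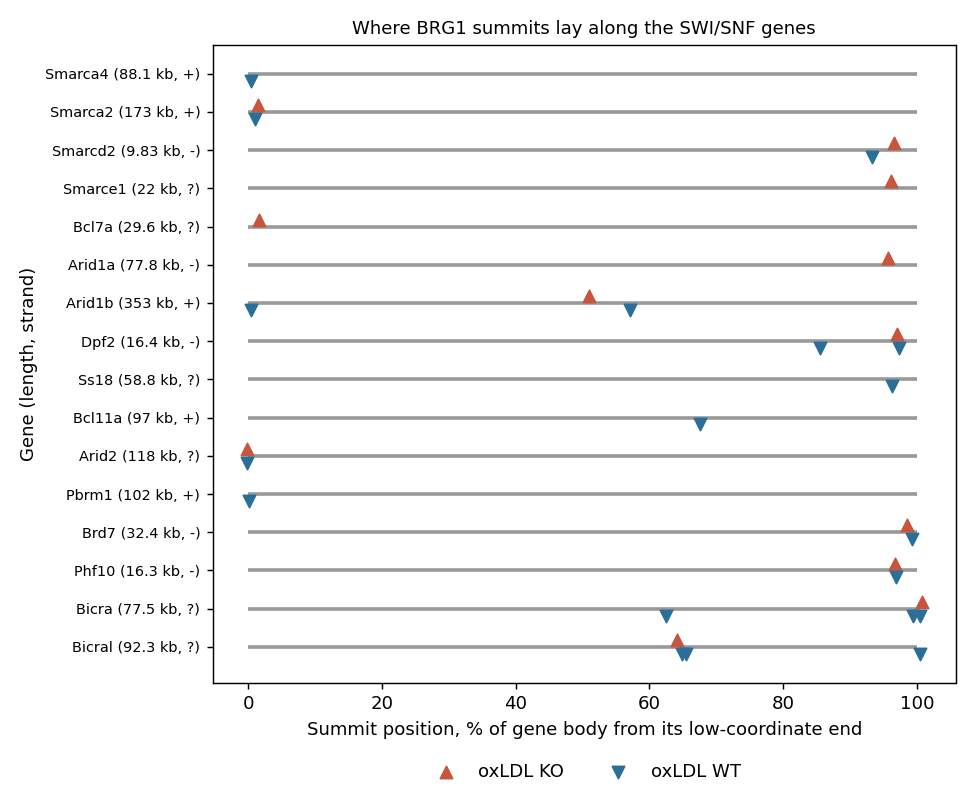
Summit positions along the 16 genes with a peak, as a percentage of the gene body from its low-coordinate end, with oxLDL KO above and oxLDL WT below each grey gene line; the label gives length and strand, with a question mark where the promoter table has no entry. Most summits stand near 1 end of a gene, while that of Bcl11a and some of Arid1b, Bicra and Bicral fall well inside.

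Counted as peaks, the genes held 12 in oxLDL KO and 19 in oxLDL WT. Of the 12 oxLDL KO peaks, 8 were within 1 kb of a gene end or outside the body and 4 were deeper inside. The 19 oxLDL WT peaks divided into 10 and 9. An overlap of at least 1 bp with the other genotype was found for 8 of 12 oxLDL KO peaks (66.7%, interval 39.1 to 86.2) and 8 of 19 oxLDL WT peaks (42.1%, interval 23.1 to 63.7). Over all peaks in or within 1 kb of a gene the shares were 62.1% in oxLDL KO and 29.2% in oxLDL WT, both within these intervals. The 8 shared sites, 1 each at Smarca2, Smarcd2, Dpf2, Arid2, Brd7, Phf10, Bicra and Bicral, had summits 27 to 695 bp apart, with a median of 222 bp. Counted as genes, 9 of the 12 in oxLDL KO were also in oxLDL WT (75.0%, against 78.3% of all genes) and 9 of the 13 in oxLDL WT were also in oxLDL KO (69.2%, interval 42.4 to 87.3, against 47.6% of all genes).

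Few of these peaks were strong ones. Fold enrichment ran from 2.93 to 4.74 with a median of 3.74 in oxLDL KO, and from 2.46 to 5.25 with a median of 3.36 in oxLDL WT. The medians of the whole lists were 3.85 and 3.75, and 6 of the 12 oxLDL KO peaks and 14 of the 19 oxLDL WT peaks lay below them. Pileups were 13 to 23 fragments in oxLDL KO and 12 to 24 in oxLDL WT, so each call rests on few fragments. At a −log10 q of at least 5, 1 gene was left in oxLDL KO (Arid2) and 3 in oxLDL WT (Arid1b, Dpf2 and Bicra), with 0 in both. These were 1 of the 12 oxLDL KO peaks and 3 of the 19 oxLDL WT peaks, where 19.8% and 25.4% of all peaks of these lists reached that limit. At a fold enrichment of at least 4 there were 4 genes in each list, with 1 such peak each, and again 0 in both, where 43.0% of all oxLDL KO peaks and 31.9% of all oxLDL WT peaks reached it. Requiring 50% of each peak to overlap, or summits within 200 bp, left 4 shared sites.

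Transcription starts and strands were listed for 24 of the 30 genes, all but Smarce1, Arid2, Bcl7a, Ss18, Bicra and Bicral. At these 24 genes, 4 summits in oxLDL KO and 6 in oxLDL WT lay within 1 kb of a listed start, and every one was downstream of it, by 168 to 967 bp. Over all genes, 78.6% of such summits in oxLDL KO and 72.2% in oxLDL WT were downstream, with medians of 262 and 213 bp. The position behind the start is therefore shared with genes at large. All summits beyond a gene end, 2 in oxLDL KO and 3 in oxLDL WT, were at Arid2, Bicra and Bicral. These genes have no listed start and enter neither these counts nor the following ones. A peak covered some of the 250 bases upstream of the start at 0 of the 26 listed starts of SWI/SNF genes in either list, near the 1.96% of all listed starts in oxLDL KO and 4.98% in oxLDL WT. Among starts with a summit within 1 kb, 0 of 4 SWI/SNF starts in oxLDL KO and 0 of 6 in oxLDL WT were so covered, against 20.8% and 31.5% of all such starts, counts too small to set apart.

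**Figure D3:**
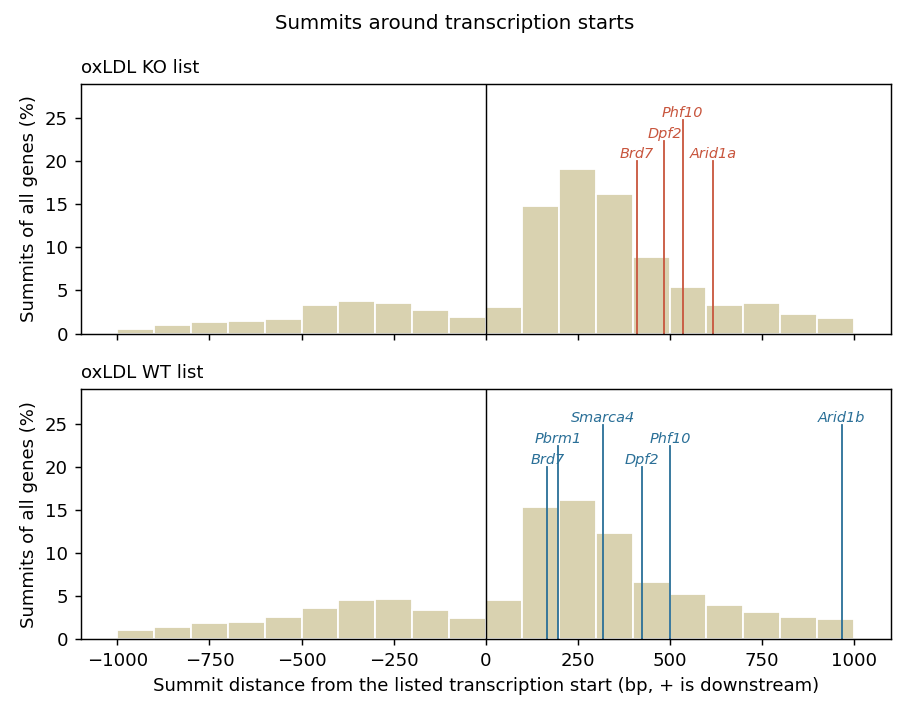
Distance of summits from the listed transcription start (bp, positive downstream) for all genes (tan bars, percentage of summits per 100 bp) and for SWI/SNF genes (named lines, heights without meaning), with oxLDL KO above oxLDL WT. The 4 lines in oxLDL KO and the 6 in oxLDL WT, at genes with a listed start, are all downstream, where most summits of all genes also lie.

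The upstream sequences of 4 genes are given because the summits stood close behind them: those of Dpf2, Phf10 and Brd7, with a summit behind the start in both genotypes, and that of Smarca4, with one in oxLDL WT. Each is the 250 bases before the listed start, 5′ to 3′ on the gene's strand, from RefSeq on GRCm38.p6, the assembly of mm10. Capitals mark matches on either strand to the GC box (GGGCGG), the CCAAT box (CCAAT), an ETS core (CCGGAAG), a PU.1-like ETS core (GAGGAAG) and AP-1 (TGANTCA, with N any base). The sequences lie at chr19:5912872-5913121 (Dpf2, minus), chr17:14961261-14961510 (Phf10, minus), chr8:88362173-88362422 (Brd7, minus) and chr9:21615919-21616168 (Smarca4, plus).
Dpf2: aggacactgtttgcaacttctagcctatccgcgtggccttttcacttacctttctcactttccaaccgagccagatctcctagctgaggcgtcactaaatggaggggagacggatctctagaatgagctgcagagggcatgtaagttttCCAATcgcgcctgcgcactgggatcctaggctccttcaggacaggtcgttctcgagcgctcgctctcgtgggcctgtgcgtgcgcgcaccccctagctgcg
Phf10: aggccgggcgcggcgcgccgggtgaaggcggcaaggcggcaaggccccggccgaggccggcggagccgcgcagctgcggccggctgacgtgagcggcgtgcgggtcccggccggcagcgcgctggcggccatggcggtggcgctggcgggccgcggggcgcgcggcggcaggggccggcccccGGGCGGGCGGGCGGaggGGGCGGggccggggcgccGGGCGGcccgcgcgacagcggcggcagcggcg
Brd7: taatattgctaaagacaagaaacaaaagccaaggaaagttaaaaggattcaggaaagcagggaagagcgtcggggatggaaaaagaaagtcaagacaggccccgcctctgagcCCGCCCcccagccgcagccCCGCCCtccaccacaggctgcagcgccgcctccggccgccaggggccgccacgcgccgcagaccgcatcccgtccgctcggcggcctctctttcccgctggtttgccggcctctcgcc
Smarca4: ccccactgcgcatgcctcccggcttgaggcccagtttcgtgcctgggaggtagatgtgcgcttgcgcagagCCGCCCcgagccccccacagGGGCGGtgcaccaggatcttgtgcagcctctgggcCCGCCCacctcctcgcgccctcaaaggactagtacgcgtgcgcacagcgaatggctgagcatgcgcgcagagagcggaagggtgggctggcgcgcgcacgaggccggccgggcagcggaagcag

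Phf10 had 5 GC box matches and 51 CpG dinucleotides in its 250 bases, Smarca4 3 and 25, and Brd7 2 and 22. Dpf2 had 17 CpG dinucleotides, 1 CCAAT box and no GC box. A GC box was found in 9 of the 11 listed promoters of genes with a peak in an oxLDL list and in 12 of the 15 of genes without one, against 42.6% of 21263 promoters of protein-coding genes. The median number of CpG dinucleotides was 25 and 29 in these sets, against 10 over all promoters. By these medians, the listed SWI/SNF promoters were thus CpG-rich whether or not a peak was called, though Smarcd2 had 4 and Bcl11b 9. The 6 genes without a listed promoter all had a peak. The set with a peak therefore covers 10 of 16 genes. The PU.1-like core was present in 1 of 11 and 1 of 15 (10.3% of all promoters), the ETS core in 1 of 11 and 3 of 15 (8.98%), the CCAAT box in 2 of 11 and 3 of 15 (35.4%), and AP-1 in 0 of 11 and 1 of 15 (6.13%). These are counts of promoters, and the 15 belong to 14 genes. Brd9 has 2 listed starts close together, so the same ETS core and GC boxes count at both. A match is a run of letters and not a binding site, and adjacent GC boxes overlap in Phf10.

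Gene length went with the presence of a peak over all genes in both oxLDL lists. At the SWI/SNF genes, longer and shorter genes differed more in oxLDL WT than in oxLDL KO. Their intervals, given below, overlap in both lists, and this difference was not tested. The 16 genes with a peak in an oxLDL list had a median length of 77.6 kb, and the 14 without one 26.3 kb, against 17.2 kb for all protein-coding genes. All genes were split by length into 3 classes of equal size. In the long class (over 31.2 kb) 22.9% of all genes had a peak in oxLDL KO and 34.7% in oxLDL WT, in the middle class 11.7% and 21.3%, and in the short class (up to 8.74 kb) 4.82% and 8.95%. Of the 17 SWI/SNF genes in the long class, 7 had a peak in oxLDL KO and 10 in oxLDL WT (41.2% and 58.8%, intervals 21.6 to 64.0 and 36.0 to 78.4). Of the 13 in the middle class, 5 had a peak in oxLDL KO and 3 in oxLDL WT (38.5% and 23.1%, intervals 17.7 to 64.5 and 8.18 to 50.3). No SWI/SNF gene was in the short class. In oxLDL WT the middle-class genes therefore stood near the background of their length. In oxLDL KO the shares of the long and middle SWI/SNF genes, 41.2% and 38.5%, were close to each other. The middle-class interval in oxLDL KO lay above the 11.7% of its length, and the long-class interval in oxLDL WT just above 34.7%. The long-class interval in oxLDL KO included 22.9%. The part of gene length in these shares was not tested. The background includes families of genes restricted to other tissues.

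Genes of the other families of ATP-dependent remodellers (ISWI, CHD with NuRD, and INO80 with SWR) were counted in the same way. Of 36 such genes, 12 had a peak in oxLDL KO (33.3%, interval 20.2 to 49.7) and 18 in oxLDL WT (interval 34.5 to 65.5%), shares whose intervals overlap those of the SWI/SNF genes widely. A peak in both lists was found at 10, and in oxLDL WT without oxLDL KO at 8. Examples with peaks in both are Smarca5, the ISWI ATPase gene, and Chd4, the NuRD ATPase gene. By family, the counts in oxLDL KO and oxLDL WT were 5 and 4 of 8 ISWI genes, 6 and 13 of 19 CHD and NuRD genes, and 1 and 1 of 9 INO80 and SWR genes. As with the SWI/SNF genes, 0 had a peak in either untreated list.

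**Figure D4:**
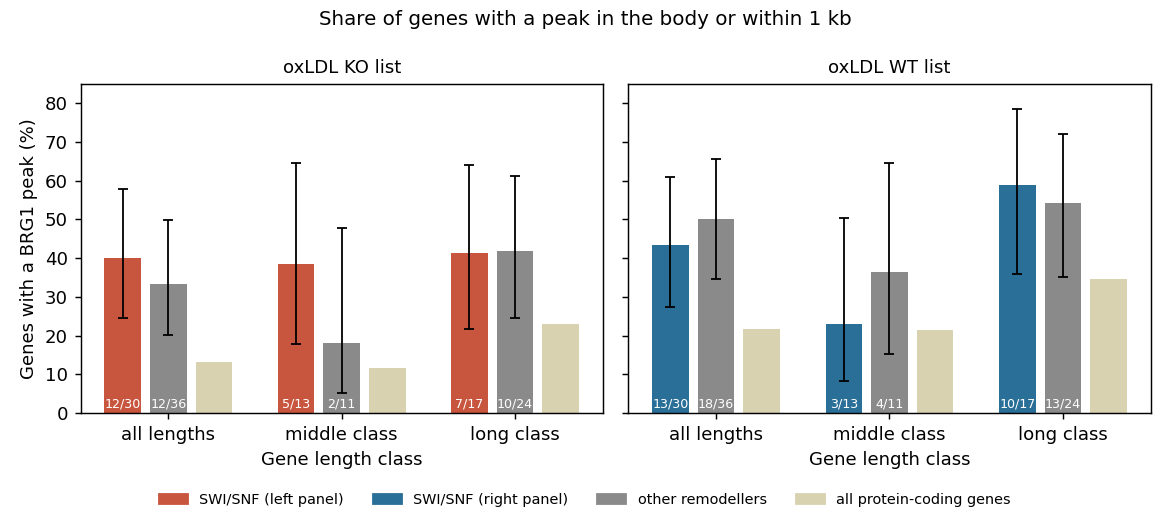
Percentage of genes with a BRG1 peak in the oxLDL KO list (left) and the oxLDL WT list (right) for SWI/SNF genes, other remodeller genes and all protein-coding genes, over all lengths and in the middle and long classes of gene length; error bars are Wilson 95% intervals for counting error, and numbers in the bars are genes with a peak of genes counted. SWI/SNF genes stand at 40.0% and 43.3% over all lengths, beside 12 and 18 of the 36 other remodeller genes.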

How the data were processed

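ChIP-seq peaks of BRG1 were analysed in 4 libraries, 1 per group, grouped by sample title. Chromatin was cut with a nuclease kit, per the labels' protocols. MACS3, Bowtie2, Trimmomatic 0.33, bcl2fastq 2.17 and the build mm10 are named, without parameters or any word on the input as a control, in the submitters' processing notes. The deposited lists were called per library. For each peak the authors give a score, which apart from rounding is 10 times the −log10 q cut to whole numbers, a fold enrichment (a ratio to local background), −log10 p and −log10 q values, and a summit offset in bp.

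Gene bodies came from RefSeq on GRCm38.p6, starts and strands from its promoter table. The pileup was solved from (pileup + 1)/(background + 1) = fold enrichment and the Poisson p-value, and came out whole, within 2% of a step, for all 31 peaks at these genes. A summit near 2 genes counts for both. Counting and recovery were tested on simulated data (Python 3.11.15, SciPy 1.17.1). All 30 genes were named by rule. Genes, complexes and comparison lists were chosen with earlier results of these data known. Alternatives were other windows, thresholds and overlaps.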

Additional observations from a re-analysis of the deposited data

How the results depend on the processing

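Of 87 values recomputed under 13 alternatives, 72 stayed within 1.5 times the reported count and 15 did not. With −log10 q limited to 5 or more, genes with a peak numbered 1 in oxLDL KO and 3 in oxLDL WT, 0 in both and 1 in oxLDL KO without oxLDL WT, and 0 peaks of either list were overlapped. At a fold enrichment of at least 4 they numbered 4 in oxLDL KO, 4 in oxLDL WT and 0 in both. Overlapped peaks numbered 4 of 12 in oxLDL KO and 4 of 19 in oxLDL WT both at 50% reciprocal overlap and with summits within 200 bp. With −log10 q limited to 2 or more they were 4 of 9 in oxLDL KO and 4 of 12 in oxLDL WT. These limits leave fewer peaks or accept fewer pairs by construction. With 1 p limit for all lists (−log10 p of at least 5.33), 9 and 10 genes were left, all among the 12 and 13. Arid1a, Phf10 and Smarce1 dropped out in oxLDL KO, and Brd7, Pbrm1 and Smarcd2 in oxLDL WT. A window of 10 kb gave 13 and 17 genes, adding Bcl7b in both lists and Arid1a, Smarcc2 and Smarcd1 in oxLDL WT. Both untreated counts stayed at 0 under all alternatives run. These counts of 0 are among the 72 values, and alternatives that only drop peaks or genes could not have changed them. Leaving out high-background peaks changed no count and could not have, since 0 peaks at these genes were of that kind. No paired analysis was possible because each group has 1 library, and no replicate could be left out. Peaks resting on 12 to 24 fragments limit what absence from a list can show.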
